A study of Mus musculus with 120 samples.

Results

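Epcam, the Kunitz-type inhibitor genes Spint1 and Spint2, and the membrane serine protease genes St14 (matriptase) and Prss8 (prostasin) were followed through single cells of the embryonic mouse endolymphatic sac. The 5 genes were taken by symbol from a table of 48371 gene symbols, and each had 1 entry. The endolymphatic sac is the blind-ended, fluid-regulating pouch of the inner ear. The tissue was taken at E14.5, and RNA of individual cells was read by Smart-seq2, which covers transcripts over their length. There were 58 cells of wild-type (WT) mice and 62 of mice heterozygous for the Sox9Y440X allele, labelled Sox9Y440X/+. Sox9 encodes a transcription factor of inner ear development, and no further allele, treatment or age is labelled. No label links a cell to its animal, so each genotype counted as 1 sample, cells were not replicates, and no p-value is given.

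Epcam is a cell adhesion molecule of epithelia that also binds claudins. Matriptase is a transmembrane serine protease and prostasin is tethered to the membrane by a lipid anchor. The 2 can activate one another, and matriptase cleaves Epcam protein. The Spint1 and Spint2 proteins are membrane-bound inhibitors of both proteases, and loss of either Spint2 or Epcam is known to disturb intestinal epithelium. Known targets of such proteases include the epithelial sodium channel, hepatocyte growth factor and the receptor F2rl1.

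The genes lie on 4 chromosomes of GRCm38, the assembly also called mm10. Epcam (ENSMUSG00000045394.8) lies at chr17:87635979-87651129 on the plus strand. Spint1 (ENSMUSG00000027315.13) lies at chr2:119237362-119249527 on the plus strand. Spint2 (ENSMUSG00000074227.12) lies at chr7:29256323-29281912 and Prss8 (ENSMUSG00000030800.10) at chr7:127925716-127930104, both on the minus strand. St14 (ENSMUSG00000031995.8) lies at chr9:31089402-31131853 on the minus strand. Each interval spans the gene's exons and introns.

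The 250 bases before the RefSeq start site are shown for the 3 members with an entry in the RefSeq promoter table (GRCm38.p6), because these genes were listed at or near 0 together in one class of cells and were high in another. Each is written 5′ to 3′ on the gene's own strand, and capitals mark matches to the motifs described after them.
Epcam, chr17:87635729-87635978, plus strand: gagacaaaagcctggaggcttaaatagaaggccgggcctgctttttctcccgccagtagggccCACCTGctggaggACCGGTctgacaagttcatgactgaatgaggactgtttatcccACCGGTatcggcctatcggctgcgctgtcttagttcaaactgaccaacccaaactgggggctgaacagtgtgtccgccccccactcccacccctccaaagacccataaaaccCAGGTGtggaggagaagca
Spint1, chr2:119237110-119237359, plus strand: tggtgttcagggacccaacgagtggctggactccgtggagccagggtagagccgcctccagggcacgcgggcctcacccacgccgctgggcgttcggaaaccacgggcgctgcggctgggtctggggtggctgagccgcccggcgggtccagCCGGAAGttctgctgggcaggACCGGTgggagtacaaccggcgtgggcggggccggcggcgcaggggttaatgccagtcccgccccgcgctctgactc
Spint2, chr7:29281978-29282227, minus strand: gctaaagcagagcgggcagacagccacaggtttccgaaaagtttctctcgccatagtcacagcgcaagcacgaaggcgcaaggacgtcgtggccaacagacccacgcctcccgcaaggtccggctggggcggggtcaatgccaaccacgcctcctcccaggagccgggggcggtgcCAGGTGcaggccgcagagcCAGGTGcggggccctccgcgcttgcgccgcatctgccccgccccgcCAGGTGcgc

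Motifs were searched on both strands as letters. The Zeb and Snail E-box CACCTG occurred 2 times before Epcam, once as CAGGTG on the opposite strand, and 3 times before Spint2, each time as CAGGTG. It occurred in 17.2% of 32851 upstream windows of the same length, with at least 2 matches in 2.06% and at least 3 in 0.247%. The Ets motif CCGGAAG occurred 1 time before Spint1, against 6.91% of all windows. The letters ACCGGT occurred 2 times before Epcam and 1 time before Spint1, against 1.86% of all windows. ACCGGT overlaps the Grainyhead-like motifs and was added after these sequences had been seen. The listed Grainyhead-like motifs AACCNGTT (1.79% of windows) and ACCGGTT (0.831%), the Sox motifs ACAAAG (16.5%) and ACAATG (10.7%) and the Forkhead motif TGTTTAC (3.17%) had no match in these 3 windows. The matches describe letters and not bound sites.

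Cells with at least 1000 genes per their label were used, 57 wild-type and 58 Sox9Y440X/+. The members were listed at 0 in all 5 cells left out. Cells were grouped by other genes, without the 5 members and the listed pathway genes. By listed marker genes, 53 wild-type and 37 Sox9Y440X/+ cells were epithelium-like, with a median of 10 and 11 of 15 epithelium markers at an FPKM of at least 1. FPKM scales fragments to transcript length and to the fragments of the cell, and a gene was called detected in a cell at an FPKM of at least 1. The mesenchyme-like class held 1 wild-type and 18 Sox9Y440X/+ cells, and 6 cells stayed unnamed. The 18 cells had a median of 7 of 12 mesenchyme markers, with a range of 0 to 10. Sox9Y440X/+ cell 10 had 0 mesenchyme and 0 epithelium markers and was placed there by its cluster. Among epithelium-like cells, Sox9 was found in 28 of 53 from wild type and 36 of 37 from Sox9Y440X/+, with median FPKM of 2.03 and 11.5. The FPKM of Sox9 sums both alleles and does not check the labelled substitution.

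Epcam, the adhesion molecule, was high and even across the epithelium-like cells. Its lowest, median and highest FPKM were 0, 519.9 and 1326 in wild type, and in Sox9Y440X/+ they were 49.7, 511 and 952. In wild type 52 of 53 cells had it, and in Sox9Y440X/+ 37 of 37. Its mean level ranked 76 of 15378 detected symbols in wild type and 93 of 15006 in Sox9Y440X/+. The 2 distributions overlapped over nearly their whole range, with 20 of 37 Sox9Y440X/+ cells below the wild-type median. The mean of log2(FPKM + 1) was 8.85 ± 1.40 (SD over 53 cells) and 8.78 ± 1.004 (SD over 37 cells), a difference of -0.07 for Sox9Y440X/+ minus wild type.

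Spint2, the more abundant of the inhibitor genes, stood above Epcam in wild type. Its lowest, median and highest FPKM were 109.7, 861 and 2115 in wild type and 0, 499 and 1239.7 in Sox9Y440X/+. Of the Sox9Y440X/+ cells 31 of 37 lay below the wild-type median, and 10 of 53 wild-type cells lay above the highest Sox9Y440X/+ cell. The mean of log2(FPKM + 1) was 9.57 ± 0.83 (SD over cells) in wild type and 8.61 ± 2.19 in Sox9Y440X/+, a difference of -0.96. Its rank among detected symbols was 45 in wild type and 101 in Sox9Y440X/+. The ratio of Spint2 to Epcam within a cell had a median log2 of 0.66 in wild type against 0.17 in Sox9Y440X/+.

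In 2 Sox9Y440X/+ epithelium-like cells Spint2 was listed at 0. Both, cells 46 and 54, belonged to cluster 6 and had 6 and 5 epithelium markers. Cd63 and App were also listed at 0 in both, while Actb was at 2075 and 2766 and Gapdh at 329 and 258. Exact zeros also occurred for Gapdh in 2 and for Eef2 in 5 of the 115 cells. Such zeros can be failed estimates, and whether these are was not tested. In 1 wild-type cell, cell 20, Epcam was listed at 0 with 8 epithelium markers and Spint2 at 245. Without these 3 cells the difference of Spint2 was -0.50 and that of Epcam -0.17.

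Spint1, the other inhibitor gene, was found in 45 of the 53 epithelium-like cells of wild type and 32 of the 37 of Sox9Y440X/+. Its lowest, median and highest FPKM were 0, 157 and 658 in wild type and 0, 123 and 371 in Sox9Y440X/+. The mean of log2(FPKM + 1) was 6.30 ± 2.82 and 5.90 ± 2.63 (SD over cells), a difference of -0.39. Both genotypes had cells at 0 and cells at 100 or more, so the groups overlapped.

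St14, the matriptase gene, was detected in 43 of 53 wild-type cells, 81.1% with a Clopper-Pearson 95% interval of 68.0% to 90.6%. It was detected in 28 of 37 Sox9Y440X/+ cells, 75.7% with an interval of 58.8% to 88.2%. These intervals cover counting error only, and they overlap. Its lowest, median and highest FPKM were 0, 70.6 and 436 in wild type and 0, 40.8 and 266 in Sox9Y440X/+. The highest wild-type cell, cell 31, had the largest summed FPKM of all cells, 4444520 against a median of 462576. The mean of log2(FPKM + 1) was 5.27 ± 2.76 and 4.33 ± 2.85 (SD over cells), a difference of -0.95, and 25 of 37 Sox9Y440X/+ cells lay below the wild-type median. With each cell scaled to the same total the difference was -0.95.

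Prss8, the prostasin gene, was the lowest of the members. Cells with Prss8 numbered 40 of 53 among wild type and 29 of 37 among Sox9Y440X/+. Its lowest, median and highest FPKM were 0, 38 and 451 in wild type and 0, 31.5 and 291 in Sox9Y440X/+. The mean of log2(FPKM + 1) was 4.23 ± 3.01 and 4.14 ± 2.61 (SD over cells), a difference of -0.09, and 19 of 37 Sox9Y440X/+ cells lay below the wild-type median.

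**Figure D1:**
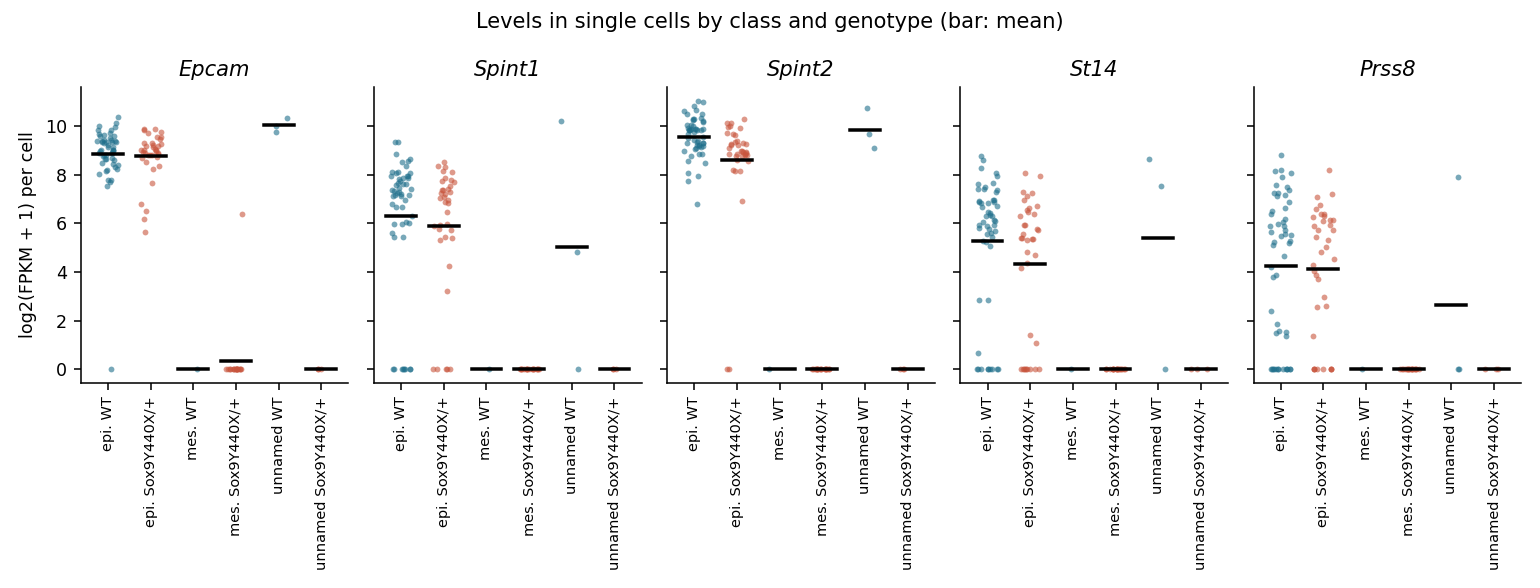
Each point is 1 cell, with log2(FPKM + 1) on the vertical axis and cell class and genotype along the horizontal axis (epi., epithelium-like; mes., mesenchyme-like; blue, WT; red, Sox9Y440X/+), and bars are means. Spint2 has means of 9.57 and 8.61 in the 2 epithelium-like groups, and the mesenchyme-like cells lie at 0 except for 1 cell with Epcam.

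None of the 5 genes moved by 1 log2 unit between genotypes in the epithelium-like cells. Over 5929 genes with detection in 25% or more of either genotype's cells, 11.8% were higher and 2.66% lower by at least 1 log2 unit in Sox9Y440X/+. The median difference was 0.31. All 5 members were below that median. Of the compared genes, 2.97% had a lower difference than Spint2 and 3.09% than St14, against 12.1% for Spint1, 24.9% for Prss8 and 25.9% for Epcam. On the log2 ratio of mean FPKM, where the median gene was at 0.08, these shares were 17.1% for Spint2 and 13.9% for St14. Sox9Y440X/+ epithelium-like cells had more genes per label than wild-type ones, with medians of 4506 and 3314. The clusters of these cells also differed in share: cluster 5 held 22 of the wild-type cells, and clusters 3 and 2 held 11 and 10 of those of Sox9Y440X/+. In cells with 2500 to 5500 genes the differences were -1.03 for Spint2 and -1.36 for St14. The median gene was then at 0.22, and 5.41% of genes had a lower difference than Spint2 and 2.80% than St14.

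**Figure D2:**
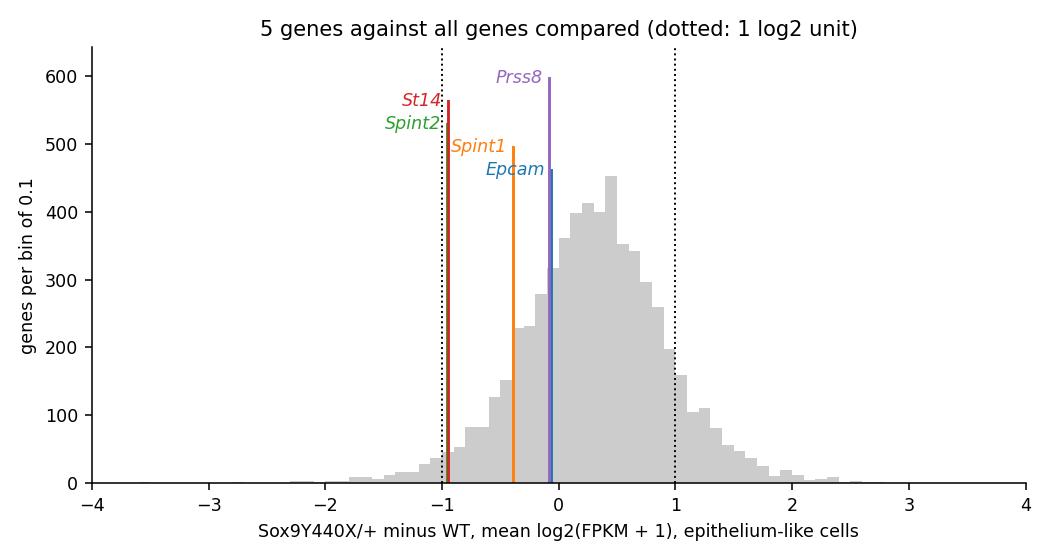
Grey bars count the 5929 compared genes by difference of mean log2(FPKM + 1) between genotypes in epithelium-like cells, with 1 gene beyond 4 units drawn in the end bar, and coloured lines mark the 5 genes. St14 at -0.95 and Spint2 at -0.96 lie just inside the dotted line at -1, while Epcam at -0.07 and Prss8 at -0.09 lie near 0.

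Xist, the RNA of the inactive X chromosome, was present in 32 of 53 epithelium-like cells of wild type and in none of Sox9Y440X/+. Over the 21 wild-type cells without Xist the differences were -1.21 for Spint1, -1.15 for Spint2, -1.27 for St14, -0.47 for Epcam and -0.43 for Prss8. The median gene was then at 0.19. Lower differences were found for 4.54% of genes than for Spint1, 5.33% than for Spint2 and 3.90% than for St14. For Epcam and Prss8 these shares were 19.5% and 20.9%. Embryo and genotype cannot be told apart in these labels.

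In the mesenchyme-like class the members were listed at 0 with a single exception. Of the 18 Sox9Y440X/+ mesenchyme-like cells Epcam was detected in 1, cell 40, at 82.2, a cell with none of the epithelium markers and 4 mesenchyme markers. Spint1, Spint2, St14 and Prss8 were listed at 0 in all 18 cells. By counting error alone 0 of 18 cells allows a share of up to 16.7% for each, and zeros that are failed estimates are not covered by that limit. The single wild-type mesenchyme-like cell had all 5 genes listed at 0. Within Sox9Y440X/+, epithelium-like minus mesenchyme-like, the differences of mean log2(FPKM + 1) were 8.61 for Spint2, 8.42 for Epcam, 5.90 for Spint1, 4.33 for St14 and 4.14 for Prss8. These ranked 4, 5, 23, 63 and 72 from the highest of 6971 genes, of which 21.3% were higher by at least 1 log2 unit. The classes come from other genes of the same cells, so these values are a description.

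With all cells pooled, the mix of classes enters the difference between genotypes. All 5 genes were then lower in Sox9Y440X/+ by at least 1 log2 unit, against 5.59% of 5756 genes lower and 10.2% higher. The differences were -3.92 for Spint2, -3.04 for Epcam, -2.43 for St14, -2.35 for Spint1 and -1.43 for Prss8. As a log2 ratio of mean FPKM, Epcam was at -0.80 and Spint2 at -1.25, and with a pseudocount of 10 Prss8 was at -0.81, so that Epcam and Prss8 did not keep 1 log2 unit under these settings. Spint2 ranked 3 from the lowest of all compared genes. The share of epithelium-like cells was 53 of 57 in wild type and 37 of 58 in Sox9Y440X/+.

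The epithelium-like cells fell into 6 clusters, named here by leading genes. Cluster 1 (13 cells, 8 wild-type) was ionocyte-like, led by Foxi1, Slc26a4 and proton pump subunits, and cluster 5 (28 cells, 22 wild-type) was led by Spp1 and Oc90. The 10 leading genes of cluster 1 also held 1 mesenchyme marker, Dcn. Cluster 3 (22 cells, 11 of each genotype) was led by Aldh1a1 and Myl7, cluster 2 (11 cells, 10 Sox9Y440X/+) by Fam132a and Aldh1a3, cluster 6 (9 cells, 5 Sox9Y440X/+) by Wnt6 with Krt8 and Krt18, and cluster 7 (7 cells, all wild-type) by Aldh1a3 and Oc90. The values by cluster describe these cells and carry no test.

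Epcam was the most even member over the clusters, with means of log2(FPKM + 1) from 9.29 ± 0.47 (SD over cells) in cluster 3 to 8.34 ± 0.59 in cluster 7. Spint2 was highest in cluster 5, with a median FPKM of 1008 and a mean of 9.84 ± 0.75, followed by clusters 3 (9.37 ± 0.59), 1 (9.21 ± 0.37), 7 (9.14 ± 1.34) and 2 (8.98 ± 0.57). Neighbours in that order differed by less than their SD. Cluster 6 came last at 6.86 ± 4.01, a mean that includes both cells listed at 0.

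Spint1 differed more between clusters than Spint2. It was detected in 13 of 13 cells of cluster 1, 26 of 28 of cluster 5 and 21 of 22 of cluster 3, with means of 7.19 ± 1.47, 7.01 ± 2.20 and 6.80 ± 1.73. In cluster 7 it was detected in 2 of 7 cells, while Spint2 was detected in 7 of 7 there. Clusters 2 and 6 lay between, at 5.22 ± 2.75 and 4.66 ± 3.65.

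The proteases had unlike orders. St14 was detected in 22 of 22 cells of cluster 3 (mean 6.25 ± 1.06) and 12 of 13 of cluster 1 (5.87 ± 1.85), and in 7 of 11 of cluster 2 (3.17 ± 2.89) and 3 of 7 of cluster 7 (2.97 ± 3.82). Prss8 had its highest mean in cluster 7 (5.65 ± 3.33, 6 of 7 cells), followed by cluster 1 (5.27 ± 1.63, 13 of 13 cells), and its lowest in cluster 2 (3.21 ± 2.54, 8 of 11 cells). In cluster 7 the combination differed by cell. Wild-type cells 4, 19 and 60 had Prss8 and Spint2, with Spint1 and St14 both listed at 0. Cells 6, 36 and 40 had St14 at 37.8, 385 and 117, and cell 42 had Spint1 at 62.5 with St14 and Prss8 at 0. Cluster 7 had the lowest median number of genes among the epithelium-like clusters, 2223, and the part of depth in these values was not tested.

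**Figure D3:**
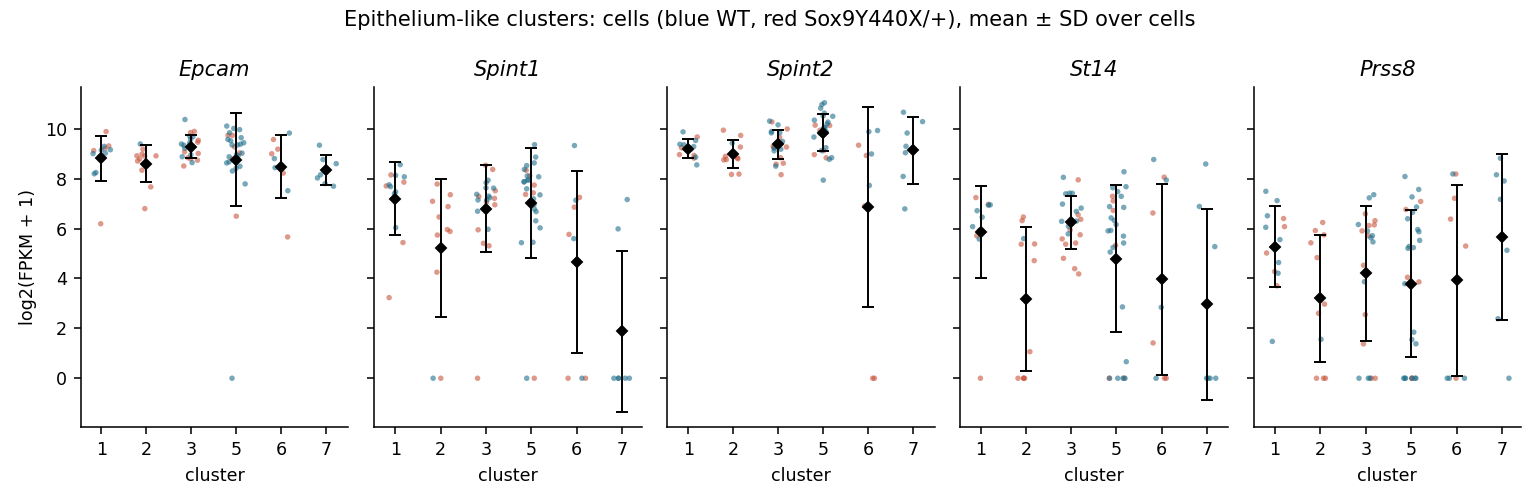
Each point is 1 epithelium-like cell (blue, WT; red, Sox9Y440X/+), with log2(FPKM + 1) by cluster, and diamonds with bars are means ± SD over cells. Spint1 and St14 have their lowest means in cluster 7, at 1.88 and 2.97, where Spint2 has 9.14.

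Ionocyte-like cells are the acid and base transporting cells of the sac. In both genotypes they had higher means of Spint1, St14 and Prss8 than the other epithelium-like cells pooled. The differences of mean log2(FPKM + 1) in wild type and Sox9Y440X/+ were 1.58 and 0.67 for Spint1, 1.22 and 0.97 for St14, and 1.36 and 1.10 for Prss8. Epcam differed by 0.02 and -0.03. Spint2 took opposite signs, -0.37 in wild type against 0.60 in Sox9Y440X/+, and whether these differ was not tested. In Sox9Y440X/+ its median FPKM was 499 in ionocyte-like and 493 in other cells. The other cells there include cells 46 and 54, in which Spint2 was listed at 0. For Prss8 in Sox9Y440X/+ the median FPKM did not follow the means, at 31.5 in ionocyte-like and 33 in other cells. For St14 in wild type the medians were 76.8 and 70.6, with detection in 8 of 8 and 35 of 45 cells. These values rest on 8 wild-type and 5 Sox9Y440X/+ ionocyte-like cells. The wild-type cells had 9 or 10 of 10 ionocyte markers detected, and those of Sox9Y440X/+ had 4 to 7. Of the 10 markers, 2 were detected in no Sox9Y440X/+ epithelium-like cell, so the cells compared were not alike in these markers. Over both genotypes, cluster 3 had a higher mean of St14 than the ionocyte-like cluster 1 (6.25 against 5.87), and cluster 7 of Prss8 (5.65 against 5.27). Within Sox9Y440X/+ the mean of Spint1 was 6.50 in cluster 5 against 6.48 in cluster 1. Within wild type Spint1 was at 7.64 in cluster 1, 7.27 in cluster 3, 7.15 in cluster 5 and 1.88 in cluster 7. Median gene numbers were 4520 in cluster 1, 2538 in cluster 6 and 2223 in cluster 7, and the part of depth was not tested.

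Within the 4 clusters with at least 3 cells of each genotype, the differences rested on few cells, and several on 1 cell. St14 differed by -1.14, -1.17, -0.49 and -1.67 in clusters 1, 3, 5 and 6. Without Sox9Y440X/+ cell 28, listed at 0, St14 in cluster 1 was at 0.15, and without cell 1, also at 0, it was at 0.39 in cluster 5. In cluster 3, where each of the 22 cells had St14, leaving out any 1 cell kept the difference between -1.40 and -1.03.

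Spint1 differed by -1.16, -0.94, -0.65 and -1.54 in clusters 1, 3, 5 and 6. Without Sox9Y440X/+ cell 5, at 8.40, it was at -0.35 in cluster 1, where the median FPKM were 209.6 in wild type against 208 in Sox9Y440X/+. Without cell 36, at 0, it was at -0.30 in cluster 3, and without cell 30, at 0, it was at 0.65 in cluster 5. The sign of Spint1 and St14 was thus not steady over clusters once single cells were left out.

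Spint2 differed by -0.13, -0.32 and -0.40 in clusters 1, 3 and 5, and leaving out any 1 cell kept these below 0. In cluster 6, which holds 4 wild-type and 5 Sox9Y440X/+ cells, 2 of them listed at 0, it differed by -4.10, and over the cells with Spint2 by -0.74. There St14 without wild-type cell 31 was at -0.38 and Spint1 without wild-type cell 33 at -0.27. Without cluster 6 the difference of Spint2 over epithelium-like cells was -0.44 and that of Spint1 -0.16.

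Prss8 differed by -0.29, -0.19 and -0.21 in clusters 1, 3 and 5 and by 3.37 in cluster 6, where 1 of 4 wild-type cells and 4 of 5 of Sox9Y440X/+ had it. Leaving out 1 cell turned the sign of Prss8 in clusters 1, 3 and 5. Epcam differed by -0.11, -0.20, 0.11 and -0.32 in the 4 clusters, with a sign that 1 cell turned in clusters 1, 5 and 6. With each of the 4 clusters weighted equally the differences were -1.24 for Spint2, -1.12 for St14, -1.07 for Spint1, -0.13 for Epcam and 0.67 for Prss8.

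**Figure D4:**
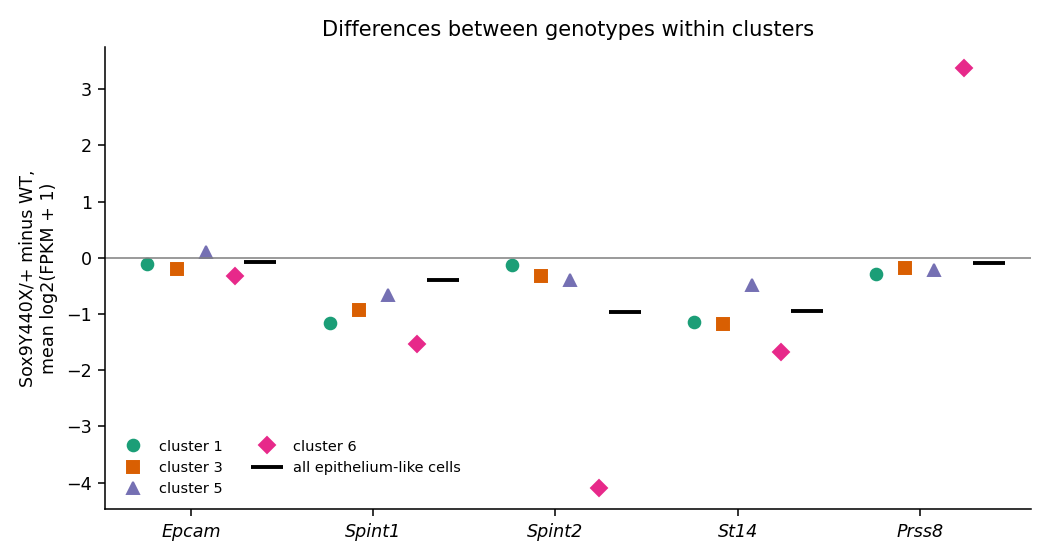
Symbols give the difference of mean log2(FPKM + 1), Sox9Y440X/+ minus wild type, within each of 4 clusters, and black dashes give it over all epithelium-like cells. Cluster 6 lies apart for Spint2 (-4.10) and Prss8 (3.37), and 1 cell at 0 sets the sign of St14 in clusters 1 and 5 and of Spint1 in cluster 5.

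Inhibitor and protease transcripts occurred together in most epithelium-like cells. All 5 genes were detected in 27 of 53 wild-type cells and in 21 of 37 from Sox9Y440X/+, and 4 of them in 20 and 9 cells. At least 1 protease was present in 51 wild-type and 33 Sox9Y440X/+ cells, and at least 1 inhibitor in 53 and 36. Both proteases were detected in 32 wild-type and 24 Sox9Y440X/+ cells, St14 alone in 11 and 4, and Prss8 alone in 8 and 5. The 1 cell with a protease and no detected inhibitor was Sox9Y440X/+ cell 54, with St14 at 97.8 and Prss8 at 38.4.

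The summed inhibitor transcripts exceeded the summed protease transcripts in nearly all cells. The sum of Spint1 and Spint2 FPKM had medians of 994 (wild type) and 702 (Sox9Y440X/+), and the sum of St14 and Prss8 had medians of 159 and 85.9. The log2 ratio of these sums, each with 1 added, had a median of 2.64 in wild type, with quartiles of 2.17 and 3.61. In Sox9Y440X/+ the median was 3.16, with quartiles of 1.89 and 4.16. The ranges overlapped. Proteases were in excess in 2 wild-type cells and 1 Sox9Y440X/+ cell.

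**Figure D5:**
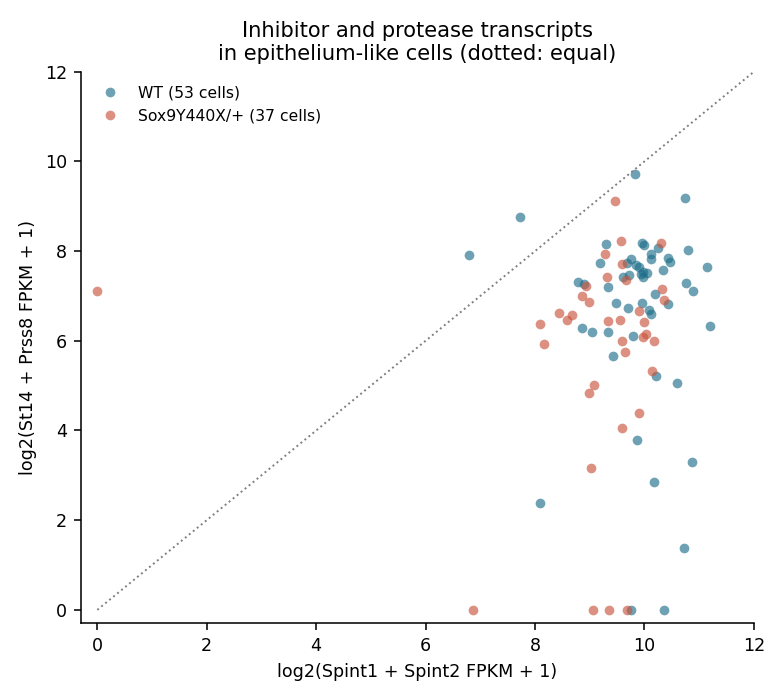
Each point is 1 epithelium-like cell, with the summed FPKM of Spint1 and Spint2 on the horizontal and of St14 and Prss8 on the vertical axis, both as log2(sum + 1). All but 3 cells lie below the dotted line of equal sums, and cells of both genotypes overlap.

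From cell to cell within the epithelium-like class the members were weakly correlated. After subtracting each genotype's mean, Pearson's r over 90 cells was 0.28 for Epcam and Spint2 and 0.27 for Spint1 and Spint2, and the other 8 pairs lay between -0.10 and 0.19. The median over the 10 pairs was 0.12. Over these 90 cells Spint2 ranked 58 of 4144 genes for Epcam, above the 95th percentile of 0.23. Without the cells with Epcam or Spint2 listed at 0, r of this pair was 0.25. Within wild type the highest values were 0.41 for Spint1 and Spint2 and 0.38 for Epcam and Spint2. Within Sox9Y440X/+ they were 0.44 for Epcam and St14, 0.32 for Epcam and Spint2 and 0.31 for Epcam and Prss8. In wild type Epcam and St14 were at 0.07 and Epcam and Prss8 at -0.12. St14 and Prss8, the protease pair, had an r of 0.09. The cells differ in the number of genes measured, and the members' own r with the number of genes per cell lay between 0.09 and 0.29. Spearman's rho for Spint1 and Spint2 was 0.15. Over cells of both genotypes with both genes detected, r was 0.25 for Epcam and Spint2, -0.12 for Spint1 and Spint2 and -0.16 for Epcam and St14. Correlations this weak are given as values only.

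The genes most like each member over these 90 cells were sought among 4144 genes detected in at least 25% of cells of both genotypes. For Spint2 they were Cd63, a tetraspanin of late endosomes, with an r of 0.74, and App, which itself encodes a Kunitz domain in some isoforms, with 0.60, followed by Sepw1, Ssr2 and Ppib. Without the 3 cells listed at 0 these values were 0.38 and 0.46, Cd63 ranked 18, and Sepw1 fell from 0.59 to 0.22, at rank 210. For Epcam the first were Cox7a2 (0.43) and Prelid1 (0.41), which were at 0.27 and 0.30 without those cells, followed by Ddost, Rfk and Calm2. Ddost was at 0.41 with those cells and 0.16 without them, at rank 851. For Spint1 they were Rnasek (0.54) and Atp5a1 (0.51), for St14 Nptn (0.46) and Prickle1 (0.44), and for Prss8 Tmem30a (0.37) and Dag1 (0.35), and these 6 genes stayed among the first 6 for their member without the 3 cells. Next came Hspb1, Ftl1 and Hexa for Spint1, M6pr, H1f0 and Gnas for St14, and Rbm3, Lgr4 and Gosr2 for Prss8. By genotype, Hspb1 was at 0.64 with Spint1 in wild type and 0.08 in Sox9Y440X/+. Ddost was at 0.54 with Epcam in wild type and 0.08 in Sox9Y440X/+. Over the 90 cells no member was among the 50 genes most like another, the nearest being Spint2 at rank 58 for Epcam. Without the 3 cells that pair was at 0.25, below Cox7a2, which then ranked 147 for Epcam. Spint1 and Spint2 were then at 0.32, above Ppib (0.30), which ranked 66 for Spint2.

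Among the membrane partners of Epcam, Cldn7, a claudin that binds Epcam, was detected in 46 wild-type and 36 Sox9Y440X/+ cells. Its mean of log2(FPKM + 1) was 6.89 and 8.08, a difference of 1.19, where 11.8% of the 5929 compared genes were higher by at least 1 log2 unit. The median FPKM were 338 and 378, the log2 ratio of mean FPKM was 0.18, and with a pseudocount of 10 the difference was 0.73. The tetraspanin gene Cd9 was detected in 50 and 35 cells, with a difference of -0.03.

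Of the other membrane-anchored serine proteases, 3 of 19 could be compared and 9 were detected in no epithelium-like cell. Hpn (hepsin) was found in 29 of 53 wild-type cells and in 22 of 37 from Sox9Y440X/+, with a highest FPKM of 1025 and 298 and a difference of -0.17. Tmprss4 was detected in 14 and 12 cells, with a difference of 0.28. Tmprss2 was detected in 17 and 6 cells, with a difference of -1.08, the 1 of 3 lower by at least 1 log2 unit, and 0 were higher, against 2.66% and 11.8% of the compared genes. With a pseudocount of 10 it was at -0.60. The median of the 3 was -0.17.

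Of the other Kunitz-type and serpin inhibitors, 2 of 10 could be compared and neither reached 1 log2 unit. App and Aplp2, its paralog, were detected in 49 and 45 of 53 wild-type cells and 34 and 29 of 37 Sox9Y440X/+ cells. Their differences were -0.33 and -0.77. Serpine2, which encodes a secreted serine protease inhibitor, was detected in 3 wild-type epithelium-like cells and in 13 of 18 Sox9Y440X/+ mesenchyme-like cells, the reverse of the members' distribution. Its part in any result here was not tested.

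Of 12 listed substrates and receptors, 1 could be compared. This was Cdcp1, a transmembrane glycoprotein cleaved by serine proteases, detected in 8 wild-type and 10 Sox9Y440X/+ cells, with a difference of 0.31. The alpha subunit gene of the epithelial sodium channel, Scnn1a, was detected in 12 and 5 cells, with highest FPKM of 38 and 6.99. Scnn1b was detected in 4 and Scnn1g in 1 wild-type cell. Met, the hepatocyte growth factor receptor gene, was detected in 12 and 5 cells, and Hgf, its ligand gene, in no epithelium-like cell. The protease-activated receptor gene F2rl1 was detected in 6 and 5 cells. Few cells had these genes, and exact zeros can be failed estimates, so the counts may miss cells.

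Of 9 transcription factor genes that promote or oppose epithelial identity, 3 could be compared and none reached 1 log2 unit, with differences of -0.75 for Elf3, an epithelial Ets factor, 0.53 for Klf5 and 0.66 for Grhl2, a Grainyhead-like factor. Zeb1, Zeb2 and Snai2, repressors of epithelial genes that bind E-boxes, were found in 4, 6 and 5 of 18 Sox9Y440X/+ mesenchyme-like cells and, in the epithelium-like class, in 1 wild-type cell with Zeb2.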

How the data were processed

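Single endolymphatic sac cells were profiled by Smart-seq2, per the labels' protocols. The authors deposited 1 table of FPKM values. HISAT2, SAMtools 0.1.18, Cufflinks, HTSeq and the build mm10 are named per the submitters' processing notes, and their settings were not given in the sources used. FPKM keeps no read counts, so the depth per cell is unknown and no count model was used. Values were summed over the 345 entries that share 161 symbols. Differences are means of log2(FPKM + 1), Sox9Y440X/+ minus WT, on which low genes are understated. Clusters came from Ward linkage (8 clusters) on 15 components of a principal component analysis over 1500 variable genes, computed with Python 3.11.15, numpy 2.4.6, pandas 2.3.3 and scipy 1.17.1. A cluster needed at least 3 detected markers. Among its 10 leading genes, markers of the other broad class, where present, also had to be fewer than those of its own. The second condition was set after seeing the data and left cluster 8 unnamed. Gene coordinates are from GENCODE M21, where Epcam and St14 were matched without the version of their identifier. Simulated, normally distributed values were used to check the arithmetic only. They held no excess of exact zeros, so the effect of such zeros was not tested there. Alternatives changed the pseudocount, scaling, cell filters, clustering and weighting. The members and the gene lists were chosen with earlier results of these data known. Named were all 5 members, the list genes detected in at least 25% of the epithelium-like cells of a genotype, and the 5 genes most like each member, passing over ribosomal protein, pseudogene, mitochondrial and unnamed gene symbols. Others named from the lists were chosen after their values were seen, and 1 listed gene is not reported here.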

Additional observations from a re-analysis of the deposited data

How the results depend on the processing

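No paired analysis was possible because cell numbers only name cells and no test was run. St14 stayed below 0 and within 1.5 times its main value (-0.95) under all 18 alternatives in epithelium-like cells, and Epcam, Spint1 and Spint2 stayed below 0 in all 18. Prss8 was below 0 in 15. Settings about cluster 8, the cells listed at 0, cluster 6, medians and single cells within clusters were chosen after seeing the data.

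With 5 clusters, which joined cluster 8 to the epithelium-like cells, and with cluster 8 counted whole, the values were equal: Epcam -0.79, Spint1 -0.77, Spint2 -1.62 and Prss8 -0.31. Over wild-type cells without Xist, Epcam was at -0.47, Spint1 at -1.21 and Prss8 at -0.43. In cells with 2500 to 5500 genes Epcam was at -0.28 and Prss8 at -0.24. Without the cells listed at 0, Epcam was at -0.17, Spint1 at -0.22, Spint2 at -0.50 and Prss8 at 0.0498. Without cluster 6, Spint1 was at -0.16, Spint2 at -0.44 and Prss8 at -0.46. With equal weight to each cluster, Spint1 was at -1.07 and Prss8 at 0.67. With classes by marker count Epcam was at -0.17. As a log2 ratio of mean FPKM, Spint2 was at -0.61 and Prss8 at -0.60. Prss8 was at 0.025 with a pseudocount of 0.1, -0.19 with 10 and -0.26 as a difference of medians.

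Over all cells, a pseudocount of 10 gave Epcam -2.01, Spint1 -1.44, St14 -1.37 and Prss8 -0.81, and the ratio of means gave Epcam -0.80, Spint1 -1.18, Spint2 -1.25 and St14 -1.41. Over cells with both genes, the median r of the 10 pairs was -0.003088. Without a filter on detection, the shares of genes past 1 log2 unit were 4.23% higher and 1.005% lower in epithelium-like cells, against 11.8% and 2.66%, and 3.31% and 1.84% over all cells, against 10.2% and 5.59%, as more genes near 0 were counted. The median difference of all genes was 0.55 with a pseudocount of 0.1 and 0.11 with 10. Within clusters, St14 turned from -1.14 to 0.154 in cluster 1 without Sox9Y440X/+ cell 28, as over detected cells, and Prss8 from 3.37 to -1.42 in cluster 6 over detected cells, 1 of them wild-type. The other causes were not tested.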

Other observations

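The 6 unnamed cells of cluster 8 entered the values over all cells but no cell class. The 3 wild-type cells had Epcam at 873, 1297 and 1037 and Spint2 at 1718, 555 and 807, with 5, 6 and 8 ionocyte markers detected. Spint1 reached 1192 in wild-type cell 41, the highest value of that gene in any cell, and was at 27.4 and 0 in the others. The 3 Sox9Y440X/+ cells of the cluster had all 5 genes listed at 0 and 5 mesenchyme markers each. These 6 cells had 1209 to 2330 genes per label.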
